A study of Desmophyllum pertusum with 36 samples.

Results

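The response to low pH after 8.5 weeks was measured by RNA sequencing in polyps of Lophelia pertusa (also named Desmophyllum pertusum), a reef-building stony coral of cold and deep water. It rests on 6 of the 18 libraries of the study: 3 from fragments held at pH 7.6, the low pH treatment, and 3 from fragments held at pH 7.9. Each pH had 1 library each of colonies 1, 3 and 4, which the design describes as genetically distinct, so the fragments of a colony form 1 genotype and the 3 colonies are the replicates. The other 12 libraries were the same colonies and pH levels at weeks 2 and 4.5. They served to estimate the spread and the differences between replicate blocks, and to compare the weeks. They also helped to form the sets of like libraries described below. No label says whether fragments stood in separate tanks, so p-values measure only the spread between these libraries. Of 75743 transcripts in the table, the 51161 (67.5%) with 10 or more counts in at least 3 of the 6 libraries were analysed.

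Corals build their aragonite skeleton from a fluid beneath the calcifying cell layer, and they raise the pH of that fluid by removing protons, a process that costs energy. Lower seawater pH leaves fewer carbonate ions and a larger proton load. This species lives without photosynthetic symbionts and depends on captured food. A polyp is a mixture of epidermal, gastrodermal, stinging and calcifying cells, and fewer cells of a type and less RNA per cell cannot be told apart in such samples. The transcripts carry numbers and are not paired with gene names in the file, so neither the cell make-up nor pathways such as ion transport could be examined. At most 2 transcripts per direction and comparison are named.

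Library totals of the 6 libraries ran from 19971946 to 24462490 counts, and the 3 at pH 7.6 held 22734590 or more. At pH 7.9 the totals were 23478879 in colony 1, 20634881 in colony 3 and 19971946 in colony 4, so the ranges overlapped. Of the tested transcripts, 50507 to 51098 had counts in a library. Both sequencing lanes of a library were summed, and log2 levels of the lanes differed with an SD of 0.175 to 0.186 among transcripts averaging 50 or more counts per lane. The limit of 10 counts left out 3924 transcripts that reached it in 2 libraries, with a median of 50 counts over the 6 libraries. Just inside it lay 3113 transcripts that reached it in 3 libraries, with a median of 67 counts, while 39866 reached it in all 6.

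The likeness of the libraries of colonies 1 and 3 did not follow their labels. The colony 1 library at pH 7.6 was most like the colony 3 library at pH 7.9 (Spearman's correlation 0.951 across 51161 transcripts), and the colony 3 library at pH 7.6 was most like the colony 1 library at pH 7.9 among the 6 (0.903), with the colony 1 library at pH 7.9 nearly as like that of colony 4 at pH 7.9 (0.897). The libraries of colony 4 resembled each other (0.952). By label, the correlation between the pH levels was 0.887 in colony 1 and 0.79 in colony 3, the lowest of the 15 pairs of libraries. These values describe libraries that share a species and a depth range and are not tests.

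**Figure D1:**
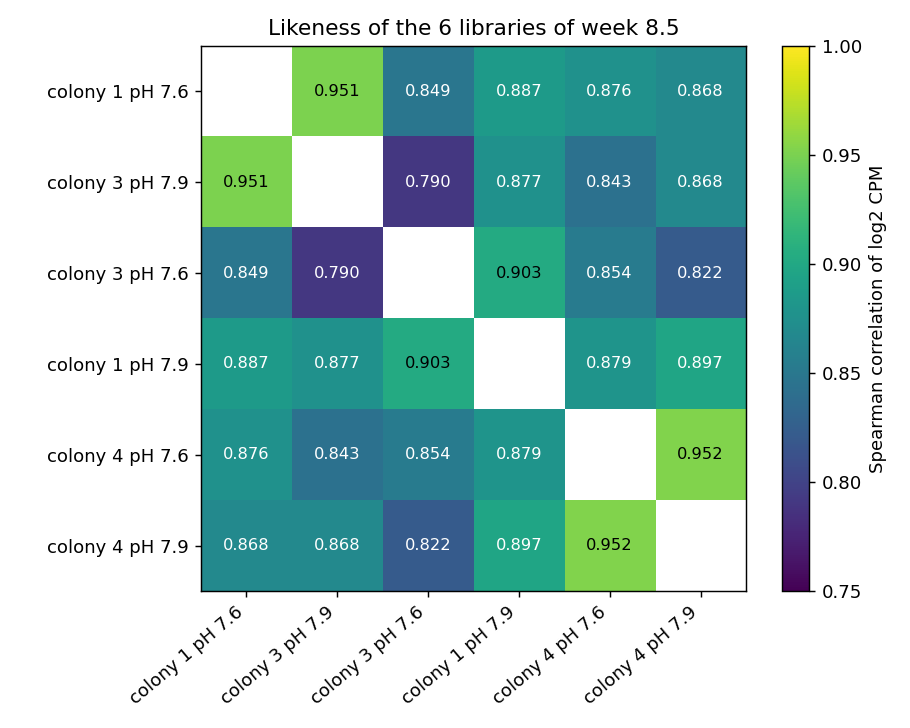
Spearman's correlation of log2 CPM (counts divided by TMM-scaled library size) across 51161 transcripts for each pair of the 6 libraries, with colour and number giving the same value. The brightest cells join colony 1 at pH 7.6 with colony 3 at pH 7.9 (0.951), colony 3 at pH 7.6 with colony 1 at pH 7.9 (0.903) and both libraries of colony 4 (0.952).

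Grouping all 18 libraries by this likeness gave 3 sets. At week 8.5 set A held colony 1 at pH 7.6 and colony 3 at pH 7.9, set B held colony 3 at pH 7.6 and colony 1 at pH 7.9, and set C held both libraries of colony 4. Each pH thus had 1 library of each set. The pH 7.9 libraries of colonies 1 and 3 lay in sets B and A at week 4.5 as well. At week 2 the pH 7.9 library of colony 1 lay in set A and that of colony 3 in set C. Whether the colony labels of these libraries were exchanged was not tested, so every value given for colony 1 or colony 3 holds by label only. Transcripts that had 0 counts in one library of a pair and 100 or more in its partner numbered 1 in set A, 13 in set B and 2 in set C, against 23 between the libraries labelled colony 1 and 63 between those labelled colony 3. Across the 12 pairs of libraries from different sets the number was 16 to 86. Results are given for the colony labels as deposited, called the colony model, and with set membership replacing colony as block, called the set model. The sets were formed from the likeness of these libraries, so a smaller spread within them follows from how they were made.

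The fold changes of the pairs restate this likeness, since both pairings use the same libraries. Paired by label, the log2 fold changes (pH 7.6 over pH 7.9) of colonies 1 and 3 ran against each other, with a Pearson correlation of -0.43 across 51161 transcripts, and 37.3% of the transcripts had the same sign in both. Paired by set, sets A and B had a correlation of 0.36 and the same sign in 64.8%. Colony 4 correlated with colonies 1 and 3 at 0.17 and 0.29. The sets correlated with set C at 0.36 each. The same sign in all 3 pairs was found for 13491 transcripts (26.4%) by colony and for 23300 (45.5%) by set. Within one pairing no library is shared, but both pairings rearrange the same 4 libraries of colonies 1 and 3, so the contrast between them is no second observation. Transcripts are not independent replicates.

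**Figure D2:**
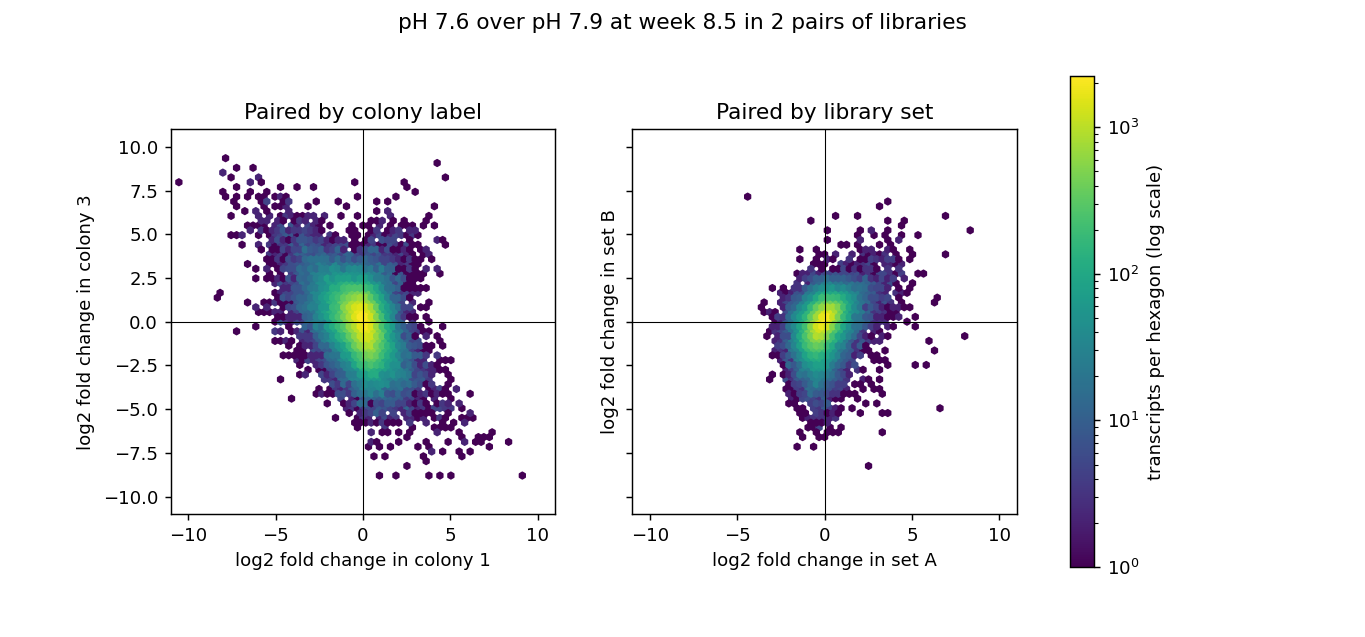
Log2 fold change of each of 51161 transcripts in 2 pairs of libraries, with colour giving the number of transcripts on a log scale. On the left the libraries labelled colony 1 and colony 3 run along the falling diagonal (Pearson correlation -0.43), and on the right sets A and B run along the rising diagonal (0.36).

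The size of the pH difference also depended on the pair. By label, 43.4% of transcripts differed by over 2-fold in colony 3, 23.9% in colony 1 and 12% in colony 4. By set the shares were 12.4% in set A, 24.3% in set B and 12% in set C. Between libraries of the same pH, which come from different colonies and sets, the share was 21.8% to 33.6%. How much of each share is due to pH was not tested. Set B had more transcripts over 2-fold lower at pH 7.6 (7763) than higher (4673), where set A had 3255 and 3082. In colony 4, whose label and set coincide, 2595 transcripts were over 2-fold higher and 3562 over 2-fold lower at pH 7.6. Single pairs of libraries have no replicate, so these counts carry no test.

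To find which transcripts the low pH changed at week 8.5, the groups were compared in edgeR's quasi-likelihood test with colony as block. At pH 7.6, 69 transcripts rose (0.135% of those tested) and 3 fell (0.00586%), in total 0.141% at an adjusted p below 0.05. The 69 that rose had log2 fold changes of 1.27 to 7.1 with a median of 2.53, and 49 of them rose over 4-fold. Over all tested transcripts the median was -0.06. The 72 transcripts had the same sign in all 3 colonies, and for each transcript the groups did not overlap. They were called by the contrast of these same libraries, so both features follow largely from that choice and are a description. Of all 51161 tested transcripts, 13491 had the same sign in all 3 colonies and 6257 had no overlap between the groups.

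The rise of the 69 was seen in each pair. Their median log2 fold change was 2.21 in colony 1, 3.16 in colony 3 and 1.98 in colony 4. Together they took 0.523% of the counts of colony 1, 0.757% of colony 3 and 0.657% of colony 4 at pH 7.6. At pH 7.9 the shares were 0.106%, 0.0829% and 0.124%. The libraries at pH 7.6 thus held several times the share of those at pH 7.9, with the highest in colony 3. These transcripts were chosen by the same contrast, so the shares are a description.

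The 2 transcripts with the highest mean log2 CPM over the 6 libraries (not corrected for length) among those that rose in the colony model changed by under 4-fold between the group means. Transcript_32004 stood at 1148, 1441 and 778 CPM at pH 7.6 in colonies 1, 3 and 4, and at 294, 254 and 341 CPM at pH 7.9. The lowest library at pH 7.6 was over 2 times the highest at pH 7.9. The means were 1122 ± 332 and 296 ± 43.8 CPM (SD, n = 3), and the fitted log2 fold change was 1.9 ± 0.27 (SE; adjusted p = 0.0188 in edgeR). Transcript_2868 stood at 339.7, 387 and 227 CPM at pH 7.6 and at 68.8, 95.6 and 81.6 CPM at pH 7.9. Its groups were also far apart, with colony 3 highest at both pH levels. The means were 318 ± 82.1 and 82 ± 13.4 CPM (SD, n = 3), and the fitted log2 fold change was 1.93 ± 0.26 (SE; adjusted p = 0.0165 in edgeR).

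At week 4.5 neither passed the test in either model, and their ratios lay between those of weeks 2 and 8.5. The ratio of group means of Transcript_32004 was 1.17 at week 2, 1.96 at week 4.5 and 3.79 at week 8.5. For Transcript_2868 it was 1.13, 2.52 and 3.87. The test of the difference from the earlier weeks gave adjusted p of 0.256 for Transcript_32004 and 0.199 for Transcript_2868 (edgeR, set model). In the colony model the adjusted p was 0.9999 for both (edgeR). At pH 7.6 the mean of Transcript_32004 was 473 ± 96.2, 595 ± 117 and 1122 ± 332 CPM at the 3 weeks, while at pH 7.9 it was 405 ± 52.8, 304 ± 23.4 and 296 ± 43.8 CPM (SD, n = 3). Every library at pH 7.6 of week 8.5 lay above the 15 other libraries for Transcript_32004 (778 to 1441 against 254 to 695 CPM) and, by a small margin, for Transcript_2868 (227 to 387 against 57.8 to 222 CPM).

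Among the transcripts that fell, Transcript_30865 stood at 4.75, 9.68 and 5 CPM at pH 7.6 in colonies 1, 3 and 4, and at 81.2, 37.4 and 46.9 CPM at pH 7.9. Its groups did not overlap, and all 3 libraries at pH 7.6 lay below the 15 others (14.7 to 176 CPM). The means were 6.48 ± 2.78 and 55.2 ± 23 CPM (SD, n = 3), and the fitted log2 fold change was -3.2 ± 0.56 (SE; adjusted p = 0.0439 in edgeR). Transcript_32398 stood at 6.44, 4.37 and 4.61 CPM at pH 7.6 and at 16.9, 25.6 and 13.3 CPM at pH 7.9. At the earlier weeks its group means were close, at 17.4 ± 4.43 and 18.2 ± 0.518 CPM at week 2 and 18.3 ± 1.51 and 17.5 ± 6.63 CPM at week 4.5 (pH 7.6 and pH 7.9, SD, n = 3). The log2 fold change at week 8.5 was -1.81 ± 0.29 (SE; adjusted p = 0.0294 in edgeR). The test of its difference from the earlier weeks gave an adjusted p of 0.774 in the colony model and 0.118 in the set model (edgeR).

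The count of 72 depended on the libraries. It was 1 without colony 1, 4 without colony 3 and 0 without colony 4 (edgeR, where 1848 had an unadjusted p below 0.05), and 0 without the week 8.5 libraries of colonies 1 and 3 at pH 7.9 (1563 unadjusted), a fit in which the lone library left at pH 7.9 is assumed to vary like the other groups. Without a block it was 54, and DESeq2 called 817 (587 higher and 230 lower).

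With the library set as block, 548 transcripts rose (1.07%) and 246 fell (0.481%) at pH 7.6, in total 1.55% of those tested (edgeR adjusted p below 0.05). Of the 72 transcripts of the colony model, 71 were among these 794 (98.6%), and they made up 8.94% of them, with 0 called in opposite directions. Both models fit the same libraries, so this overlap is no second observation. The median log2 fold change was 1.78 for those that rose and -1.7 for those that fell, and 213 and 74 changed over 4-fold. Chosen by the same contrast, all 548 were higher in each of the 3 set pairs, which is a description. By label they were higher in 527 cases in colony 1 and in all 548 in colonies 3 and 4. Of the 246 that fell, 194 had the same sign in all 3 colonies, and 8 were higher at pH 7.6 in colony 1 and 44 in colony 3.

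**Figure D3:**
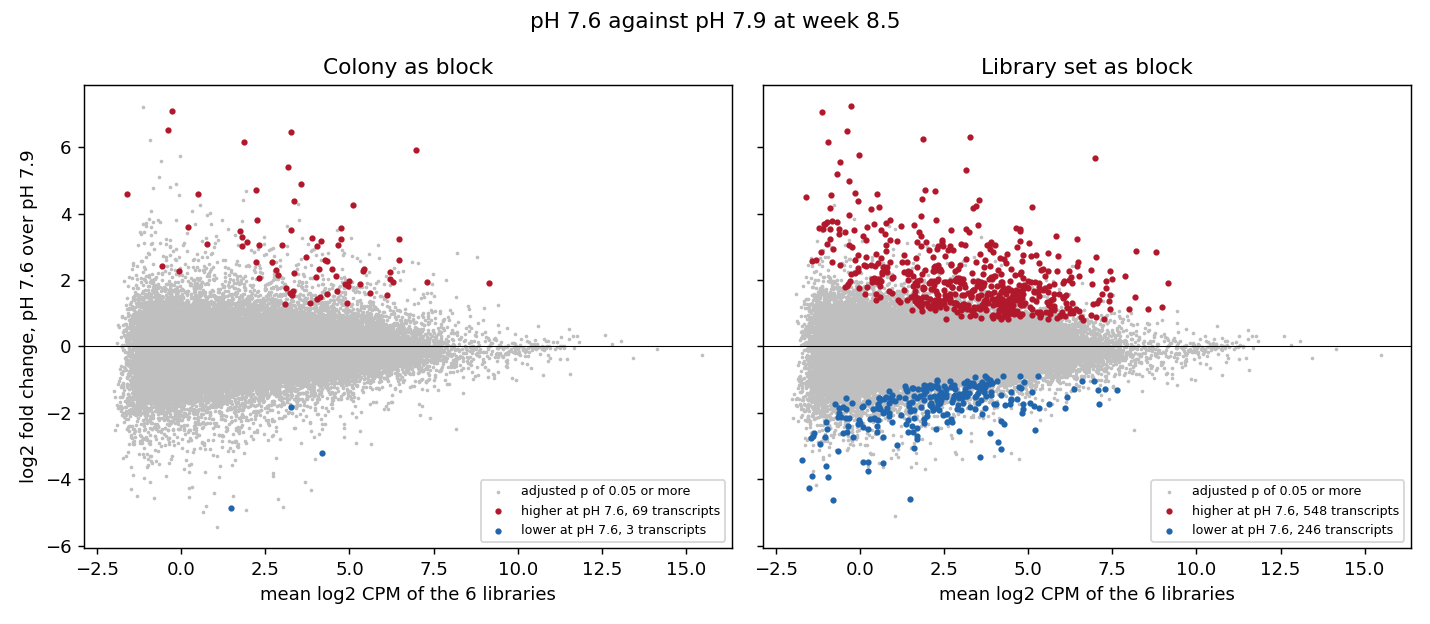
Log2 fold change of pH 7.6 over pH 7.9 at week 8.5 against the mean log2 CPM of the 6 libraries, 1 point per transcript, with colony (left) or library set (right) as block. Red points rose and blue points fell at an edgeR adjusted p below 0.05, 69 and 3 on the left and 548 and 246 on the right.

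The share of counts in these transcripts was set beside the pairs. The 548 that rose took 2.44% of counts in set A at pH 7.6 against 0.588% at pH 7.9, 3.95% against 1.04% in set B, and 3.04% against 1.08% in set C. The 246 that fell took 0.191% against 0.455%, 0.254% against 0.714% and 0.175% against 0.511%. Within each set, the share moved in the direction of the calls by over 2 times. These transcripts were chosen by the same contrast, so shares and fold changes within the sets are a description. The median log2 fold changes of the 548 were 1.94, 1.84 and 1.3 in sets A, B and C, so the pair of colony 4 had the smallest, and those of the 246 were -1.23, -1.84 and -1.55.

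Calls were found in every class of abundance. CPM are not corrected for transcript length, so the classes rank counts and not molecules. In the set model, 0.772% of the 10227 transcripts with a mean log2 CPM below 0 were called, and 3.42% of the 1843 at 6 and above. The highest class held 54 rises and 9 falls. The class from 4 to 6 held 165 and 28 (2.48% of 7772), and that from 2 to 4 held 178 and 99 (1.85% of 14960). The class from 0 to 2 held 104 and 78 (1.11% of 16359), and the lowest class held 47 and 32. The median SD of the 3 set pairs fell from 0.7 on the log2 scale in the lowest class to 0.26 in the highest.

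The transcripts named for the size of their change in the set model were scarce in one group, except Transcript_7317. Transcript_66519 stood at 35.9, 99 and 193 CPM at pH 7.6 in colonies 1, 3 and 4, and at 1.25, 0.204 and 2.65 CPM at pH 7.9, where it had 30, 4 and 56 counts. The groups were far apart, with a log2 fold change of 6.3 ± 0.74 (SE; adjusted p = 0.000622 in edgeR). In sets A, B and C the log2 fold changes were 6.92, 6.21 and 6.14, and in colonies 1, 3 and 4 they were 4.74, 8.38 and 6.14. The groups did not overlap at the earlier weeks either. The means at pH 7.6 and pH 7.9 were 68.2 ± 49.8 and 6.03 ± 1.71 CPM at week 2 (SD, n = 3). They were 12.8 ± 4.64 and 0.727 ± 0.295 CPM at week 4.5. Neither earlier difference passed the test, with adjusted p of 0.178 and 0.102 (edgeR, set model). The test of its difference between weeks gave an adjusted p of 0.474 (edgeR, set model).

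Transcript_9660 stood at 5.7, 52 and 56.1 CPM at pH 7.6 in colonies 1, 3 and 4 and at 0.875, 0.153 and 0.474 CPM at pH 7.9, with 21, 3 and 10 counts. Colony 1 was the lowest at pH 7.6 and still above all libraries at pH 7.9. The log2 fold change was 6.23 ± 0.83 (SE; adjusted p = 0.00159 in edgeR). At both earlier weeks it was also higher at pH 7.6, with no overlap between the groups. The means were 16.2 ± 19 against 1.99 ± 0.929 CPM at week 2 (SD, n = 3). They were 5.05 ± 1.91 against 0.942 ± 0.537 CPM at week 4.5. The week 2 libraries at pH 7.6 stood at 5.55, 38.1 and 4.84 CPM in colonies 1, 3 and 4. Neither earlier difference passed the test, with adjusted p of 0.601 and 0.463 (edgeR, set model). The test of its difference between weeks gave an adjusted p of 0.32 (edgeR, set model).

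Of the transcripts that fell in the set model, Transcript_1136 stood at 1.47, 0.33 and 0.236 CPM at pH 7.6 in colonies 1, 3 and 4, and at 43.4, 3.88 and 12.4 CPM at pH 7.9. Its log2 fold change was -4.59 ± 0.78 (SE; adjusted p = 0.00734 in edgeR), with -1.35, -6.69 and -5.24 in sets A, B and C. The values of colonies 1, 3 and 4 lay closer together, at -4.8, -3.23 and -5.24. At pH 7.6 against pH 7.9 its mean was 90.9 ± 33.1 against 33.6 ± 9.14 CPM at week 2 and 8.6 ± 4.89 against 67.4 ± 19.3 CPM at week 4.5 (SD, n = 3). Neither difference passed the test, with adjusted p of 0.839 at week 2 and 0.259 at week 4.5 (edgeR, set model).

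Transcript_7317 stood at 22.3, 0.536 and 2.95 CPM at pH 7.6 in colonies 1, 3 and 4, and at 26.2, 41.8 and 58.2 CPM at pH 7.9. The groups were separated only by the gap between colony 1 at pH 7.6 and colony 1 at pH 7.9. The log2 fold change was -3.33 ± 0.66 in the set model (SE; adjusted p = 0.0189 in edgeR) and -2.89 ± 1.2 in the colony model, where the adjusted p was 0.485. Set A changed least, with -0.91, against -5.39 in set B and -4.26 in set C.

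The count of 794 was 45 without colony 1 (19 higher and 26 lower), 92 without colony 3 and 21 without colony 4 (20 higher and 1 lower). Leaving out colony 1 or colony 3 took 1 library each from sets A and B at week 8.5, so neither set kept its pair. Leaving out colony 4 removed both libraries of set C. Without the week 8.5 libraries of colonies 1 and 3 at pH 7.9, an alternative chosen after seeing the data, that group keeps 1 library. The log2 fold changes there were 5.74 for Transcript_66519, 5.95 for Transcript_9660, -4.57 for Transcript_1136 and -3.24 for Transcript_7317. Fitted to the 6 libraries of week 8.5 alone, the set model called 279 transcripts (225 higher and 54 lower), 215 of them among the 794. In the same 6 libraries the colony model called 0 (edgeR, 1978 at an unadjusted p below 0.05).

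The libraries were also compared without any pairing, as a count that carries no test. The 3 libraries at pH 7.6 all lay above the 3 at pH 7.9 in 3418 transcripts (6.68%) and all below in 2839 (5.55%). Of these, 195 were apart by over 2-fold between the nearest libraries upward and 70 downward. The set model called 164 of the 195 and 40 of the 70, and the colony model called 61 and 3. Over all tested transcripts the 2 models called 1.55% and 0.141%. The 195 and 70 were picked for their separation in the libraries that the models compare. More calls among them thus follow from the choice.

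No transcript was found at one pH and missing from the other at a high count. Of the tested transcripts, 0 had no counts in the 3 libraries of one pH and 10 or more in each of the other. For 155 transcripts only the libraries at pH 7.6 reached 10 counts, and for 89 only those at pH 7.9. They entered the test through the group where they were high and therefore had to differ. The calls of the set model include 29 of the 155 and 13 of the 89, and those of the colony model 4 and 0. None of the 155 exceeded a mean of 8.35 CPM at pH 7.6, and none of the 89 exceeded 2.22 CPM at pH 7.9.

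The earlier weeks were measured in other libraries and show how far the transcripts called at week 8.5 differed before. Of the 548 that rose in the set model, 485 (88.5%) were higher at pH 7.6 at week 2 and 406 (74.1%) at week 4.5. Over all tested transcripts, the sign at week 8.5 was shared by 64% at week 2 and 47.3% at week 4.5. The median log2 fold change of the 548 was 0.52 at week 2, 0.31 at week 4.5 and 1.78 at week 8.5. Week 2 had 2 libraries of set C and none of set B at pH 7.9, whereas weeks 4.5 and 8.5 had 1 of each set at both pH levels.

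Of the 246 that fell, 164 (66.7%) were lower at pH 7.6 at week 2 and 202 (82.1%) at week 4.5, with median log2 fold changes of -0.28, -0.62 and -1.7 at the 3 weeks. Differences within 2-fold at both earlier weeks were found for 368 of the 548 and 162 of the 246. A difference over 2-fold in the same direction at both was found for 53 and 8. Of all 51161 tested, 46566 were within 2-fold at both and 230 over 2-fold in the direction of week 8.5 at both. In the colony model, 34 of the 69 that rose were within 2-fold at both earlier weeks and 16 were over 2-fold higher at both, against 44217 and 294 (either direction) of all tested.

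The levels behind these differences varied by week at both pH levels. The 548 transcripts had a median log2 CPM of 3.72, 3.15 and 4.37 at pH 7.6 and of 3.13, 2.81 and 2.52 at pH 7.9 at weeks 2, 4.5 and 8.5. The 246 had medians of 2.76, 3.1 and 1.46 at pH 7.6 and of 3.07, 3.76 and 3.05 at pH 7.9. At week 8.5 the first list was thus at its highest at pH 7.6 and its lowest at pH 7.9, and the second was at its lowest at pH 7.6. All tested transcripts stayed between 1.86 and 1.95. The week 8.5 values chose the lists and are a description.

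**Figure D4:**
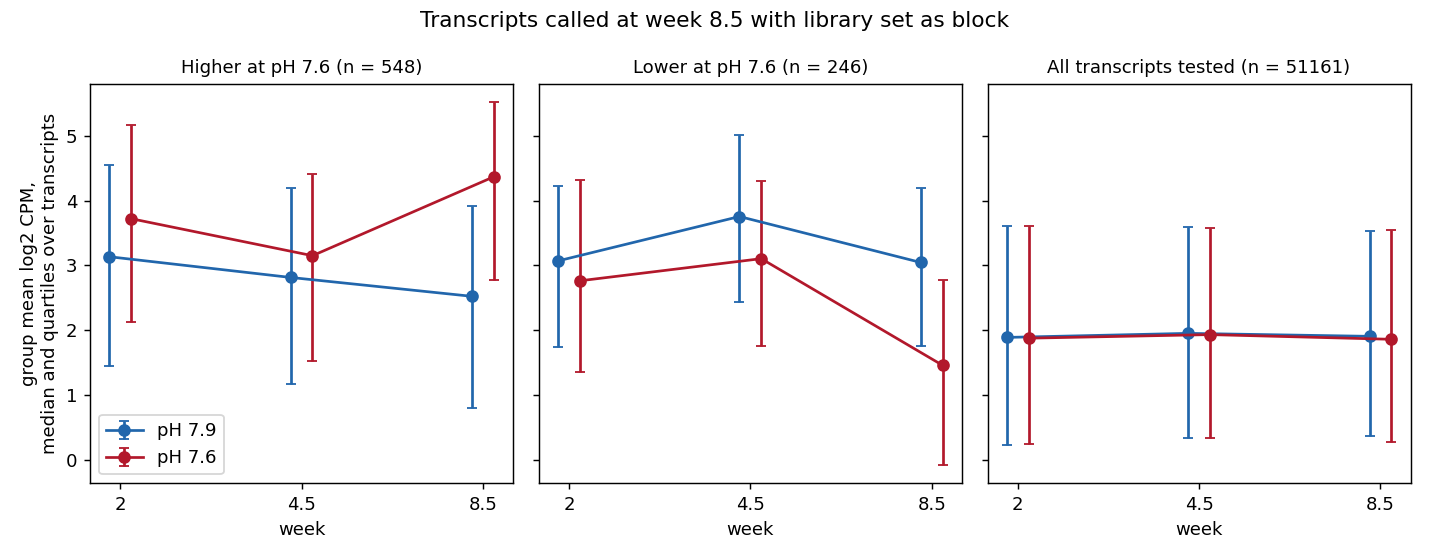
Median and quartiles over transcripts of the group mean log2 CPM at pH 7.6 (red) and pH 7.9 (blue) by week, for the 548 transcripts that rose, the 246 that fell at week 8.5 in the set model, and all 51161 tested. At pH 7.6 the medians stand at 4.37 and 1.46 at week 8.5, against 2.52 and 3.05 at pH 7.9.

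Whether the response at week 8.5 differed from the earlier weeks was tested as the difference between its log2 fold change and the mean of those at weeks 2 and 4.5. The colony model gave 0 calls in edgeR (1864 unadjusted p-values below 0.05), 0 in limma-voom and 33 in DESeq2. The set model gave 2 calls, both higher (0.00391%; 4473 unadjusted p-values below 0.05), 2 in limma-voom and 214 in DESeq2. Without colony 1, 3 or 4 the set model called 0 (edgeR, 3256, 2826 and 2740 unadjusted).

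Transcript_2091 was near 1 CPM in all other libraries and rose at pH 7.6 at week 8.5. It stood at 19.2, 21.4 and 12.4 CPM at pH 7.6 in colonies 1, 3 and 4, and at 1.25, 1.48 and 0.994 CPM at pH 7.9. The 15 other libraries of the study lay between 0.171 and 1.48 CPM. The log2 fold change was 3.82 ± 0.43 at week 8.5, against -0.19 ± 0.49 at week 2 and -0.37 ± 0.47 at week 4.5 (SE, set model). The difference was 4.1 ± 0.54 (SE; adjusted p = 0.0226 in edgeR). In the colony model the difference was 4.03 ± 0.62 with an adjusted p of 0.344 (edgeR), and with lane 1 alone in the set model the adjusted p was 0.107.

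Transcript_56958 also passed the test, from a higher level. It stood at 40.7, 145 and 120 CPM at pH 7.6 in colonies 1, 3 and 4, and at 15.2, 2.09 and 16.9 CPM at pH 7.9. The lowest values of each pH belonged to set A, at 40.7 and 2.09 CPM. The 15 other libraries of the study lay between 1.93 and 40.3 CPM, so colony 1 at pH 7.6 was only just above them. The highest of these was colony 4 at pH 7.6 of week 2. The log2 fold change at week 8.5 was 3.47 ± 0.31, against 0.79 ± 0.3 at week 2 and 0.17 ± 0.29 at week 4.5 (SE, set model), a difference of 3.00 ± 0.36 (SE; adjusted p = 0.0171 in edgeR). In the colony model its week 8.5 change was 2.92 ± 0.99 with an adjusted p of 0.353 (edgeR).

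**Figure D5:**
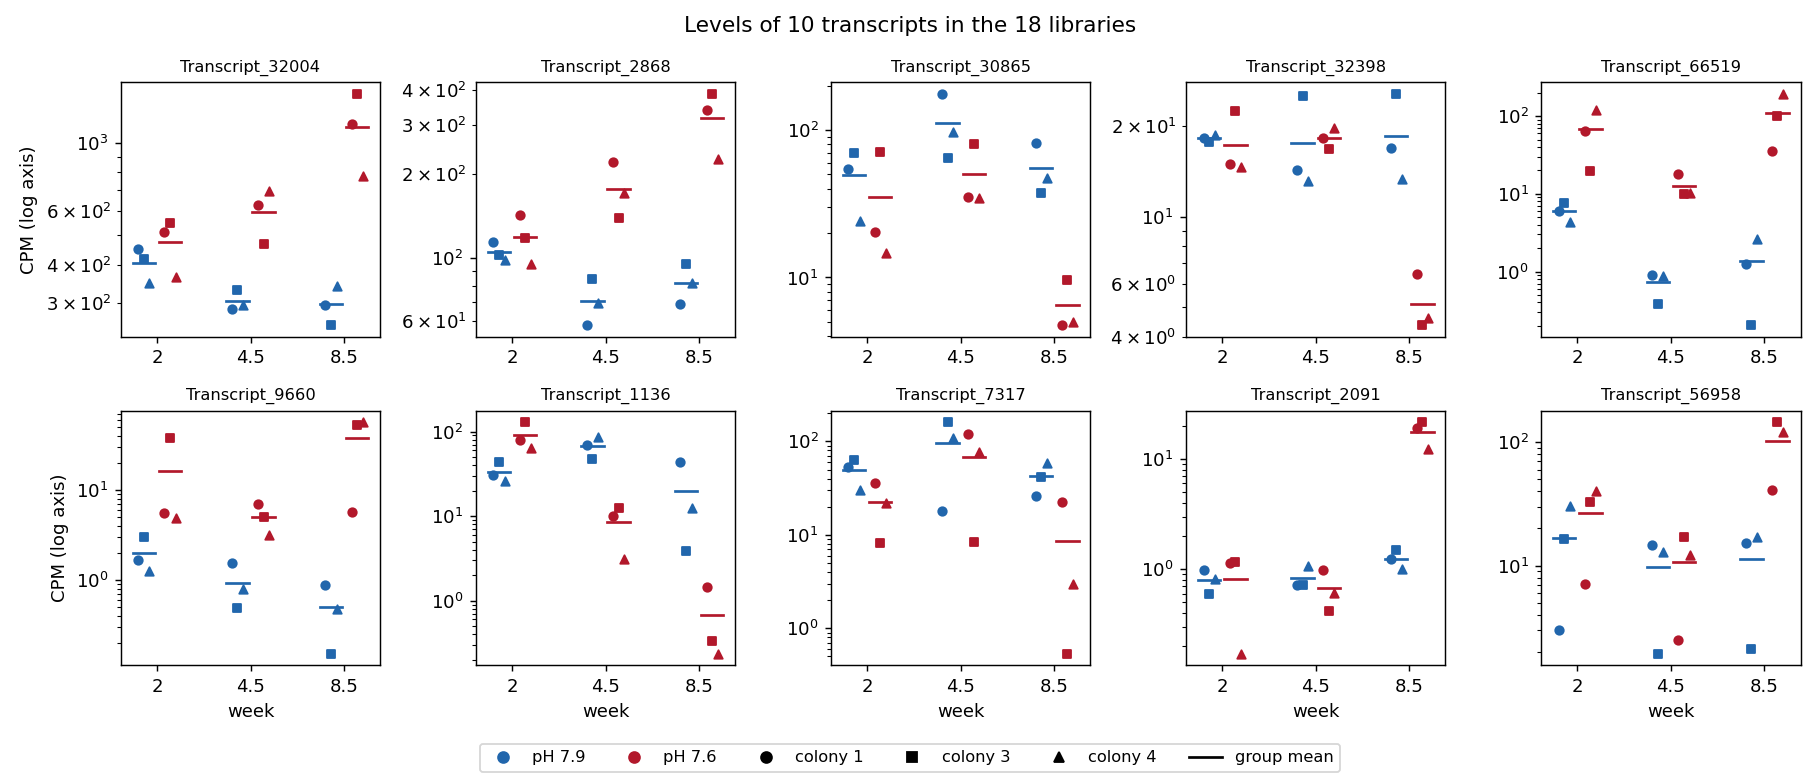
CPM on a log axis of the 10 named transcripts in the 18 libraries by week, with pH 7.6 in red and pH 7.9 in blue, marker shape giving the labelled colony and bars the mean of 3 libraries. For Transcript_2091 the 3 libraries at pH 7.6 of week 8.5 stand at 12.4 to 21.4 CPM and the 15 others at 0.171 to 1.48 CPM.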

How the data were processed

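The authors deposited a table of raw read counts by transcript and lane, made from single-end Illumina HiSeq reads of polyp RNA. The submitters' processing notes list Trimmomatic 0.36, cutadapt 1.15, FastQC and DESeq2 with no role. The aligner, the counter and the transcript set were not given in the sources used here. How reads common to similar transcripts or alleles were counted is therefore unknown. Time points 1 to 3 of the labels were matched to weeks 2, 4.5 and 8.5 in order.

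Lanes were summed. Totals of all 18 libraries ran from 18042191 to 25651213 counts, and 0.338 to 0.554% of counts lay outside the tested transcripts. The quasi-likelihood test of edgeR 4.0.16 (R 4.3.3) was used with TMM factors, fitted to the 18 libraries with a mean per pH and week plus colony or library set, and Benjamini-Hochberg adjustment over 51161 transcripts. SEs were obtained from the F statistics. CPM use TMM-scaled library sizes, and log2 CPM a prior count of 2. Sets came from average linkage on 1 minus Spearman's correlation. The common dispersion was 0.189 with colony and 0.0912 with set. Alternatives used DESeq2 1.42.0, limma 3.58.1 and other filters, lanes and samples. The tests were tried on simulated counts.

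Colony was the replicate block, since by the labels each colony had fragments at both pH levels. Deviations of same-numbered libraries from their group means correlated at -0.363, -0.327 and 0.711 in colonies 1, 3 and 4, and at 0.735, 0.613 and 0.711 in sets A, B and C.

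Transcripts are named by rule: in the colony model the highest mean log2 CPM among calls with the same sign in the 3 colonies; in the set model the largest fold change among calls with a mean log2 CPM of at least 1, the same sign in the 3 sets and no overlap; for the difference between weeks the largest called with a mean log2 CPM of at least 1. The rule, transcripts and comparisons were chosen with earlier results of these data known.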

Additional observations from a re-analysis of the deposited data

Results flagged for a closer look

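Both transcripts whose pH effect at week 8.5 differed from the earlier weeks in edgeR's test of that difference are listed here. For Transcript_2091 the difference of log2 fold changes was 4.1 in the set model, and it lay between 3.78 and 4.25 in the 14 alternatives, 7 of which passed an adjusted p of 0.05. For Transcript_56958 it was 3.00 in the set model and 2.64 to 3.1 in the alternatives, 8 of 14 of which passed. Neither passed with colony as block or without colony 1, 3 or 4. The groups hold 3 libraries each, too few to look for single libraries that stand apart.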

How the results depend on the processing

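The colony model's 72 calls became 817 with DESeq2 and 794 with the replicate block by library set. The count was 0 with the 6 libraries of week 8.5 alone and 0 to 4 without one colony. The cause was not tested. Another scaling, filter, lane or spread estimate, limma-voom and the fit with no replicate block (54) kept the count at 54 to 100. Without the week 8.5 libraries outside their colony's main set (colonies 1 and 3 at pH 7.9), that group keeps 1 library. The same holds without the 5 such libraries of all weeks, so calls of these fits are not counted here. The 4 named transcripts of the colony model kept their direction in all 16 alternatives each, and each passed in 10 of them. They were named for the same sign in all 3 colonies, and the alternatives reuse these libraries. The kept direction thus follows largely from that choice.

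The set model's 794 calls became 2403 with DESeq2 (1244 higher and 1159 lower, 762 shared), 279 with the 6 libraries alone, 72 with the replicate block by colony, 54 with no replicate block, 21 to 92 without one colony and 1 without the week 8.5 libraries outside their colony's main set. Under the other settings it was 728 to 865. Its named transcripts kept their direction in all 15 alternatives, and Transcript_66519 passed in 13, Transcript_9660 and Transcript_1136 in 12 each and Transcript_7317 in 9, with a log2 fold change of -4.1 to -2.3.

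The difference between weeks in the colony model was 0 calls, 33 with DESeq2 and 2 with the replicate block by library set. In the set model it was 2 calls, 214 with DESeq2, 1 with lane 1 only, 0 with no replicate block, 0 with the replicate block by colony, 0 without any one colony, and 1 without the week 8.5 libraries outside their colony's main set. The transcripts not overlapping between groups numbered 6257, 6249 with the size factors of DESeq2 and 6157 with library totals. Alternatives without the 5 libraries, without the week 8.5 libraries in the set model, and for the overlap were chosen after seeing the data.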
